A study of Mus musculus with 56 samples.

Results

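Aminoacyl-tRNA synthetases, the enzymes that join each amino acid to its transfer RNA, were followed over the day in the anterior hypothalamus of female mice fed in the light or in the dark. The members were chosen by symbol alone, as genes named by a single capital letter followed by ars, with no digit or with 1, 2 or 3, together with Eprs, Farsa and Farsb. Of the 17564 genes measured, 37 carried such a symbol. All 37 passed the filter on low values (1 or more in 80% of mice), as did 16245 genes in total. They comprise 20 synthetases of the cytosol and 17 of the mitochondrion.

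The 56 samples came from C57BL/6J mice aged 9 weeks, 28 on each feeding regimen. In night time-restricted feeding (NRF, the reference) food was given during the dark phase, and in day time-restricted feeding (DRF) during the light phase, in both cases for 7 days after a week with food at all times, on chow and under a 12 h light and 12 h dark cycle. Tissue was taken every 4 h from ZT0 to ZT24 (zeitgeber time, hours after lights on), at 7 time points with 4 mice per regimen, ZT24 being sampled from separate animals. Polyadenylated RNA was sequenced in bulk, so fewer cells of a type and less RNA per cell cannot be told apart.

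Every protein made by a cell draws on charged transfer RNAs. The cytosol and the mitochondrion each have their own set, both encoded in the nucleus, and glycyl-tRNA synthetase (Gars) and lysyl-tRNA synthetase (Kars) serve both compartments from a single gene. Several cytosolic enzymes, among them those for leucine, isoleucine, methionine, glutamine, arginine, lysine and aspartate and the fused enzyme for glutamate and proline (Eprs), are bound in a multisynthetase complex with the scaffold proteins Aimp1, Aimp2 and Eef1e1. Leucyl-tRNA synthetase (Lars) is also known as a leucine sensor upstream of mTORC1. When amino acids are short, uncharged transfer RNA activates the kinase GCN2 (Eif2ak4), and translation of the transcription factor ATF4 follows, which raises transcription of several cytosolic synthetases.

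Levels are given as CPM, the reads of a gene relative to the size of its library, recovered from the deposited values, and differences are on the scale of log2(CPM + 1). Each library held between 28095870 and 32174101 reads in the genes whose reads could be recovered, and a member had from 143 reads (Pars2) to 8290 reads (Aars) in a mouse. Nothing in the labels states whether mice of a group were related or sampled together, so the p-values measure the spread between these mice. Markers of the suprachiasmatic nucleus and surrounding hypothalamus (Avp, Vip, Six6, Six3, Lhx1, Oxt, Crh and Sim1) were all present, whereas the pituitary hormones Gh and Prl had means of 0.0297 and 0.047 CPM. The third pituitary gene looked at, the hormone subunit Cga, had a mean of 1.46 CPM, with a range of 0 to 13.8 over the libraries. Of the 4 DRF libraries at ZT16, replicates 3 and 4 stood apart. In them the deviation of all tested genes from their mean correlated with the GC content of the gene model at r = 0.63 and 0.75, against -0.43 to 0.39 in the other 54 libraries. Many results that use replicates 3 and 4 are given with and without them. Others are given only with them, among them the JTK_CYCLE and Lomb-Scargle calls in DRF, the median amplitudes and the marker values. In NRF the correlation with GC content also moved with time. It was 0.044 to 0.28 in the ZT8 libraries, -0.38 to -0.13 at ZT20 and -0.43 to -0.23 at ZT24. Counts of members with library trends removed are given in the section on processing.

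The cytosolic synthetases were the more abundant class. Per kilobase of gene model, the cytosolic members ranged from 4.82 ± 0.35 CPM per kb (SD over 56 mice) for Farsa, a subunit of the phenylalanyl enzyme, to 90.4 ± 3.7 for the asparaginyl enzyme Nars, with a median of 15.4. The mitochondrial members ranged from 0.625 ± 0.060 for the methionyl enzyme Mars2 to 8.23 ± 0.55 for the arginyl enzyme Rars2, with a median of 3.33, and the median of all genes tested was 4.96. The 2 ranges overlap, and Farsa, Tars, Eprs, Cars, Qars and Vars lay below Rars2. The length for Mars2 is 11294 bases, longer than the 2882 bases of its RefSeq locus, so its place depends on the gene model used. The spread between mice of a group was small, with a median SD of 0.051 for the cytosolic and 0.073 for the mitochondrial members on the log2 scale, against 0.092 over all genes tested.

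Under NRF, 12 of the 37 synthetases were rhythmic by JTK_CYCLE and the Lomb-Scargle periodogram at an adjusted p-value under 0.05, a share to be read against 27.8% of all genes tested. They were 5 of the 20 cytosolic members (Hars, Lars, Mars1, Qars and Tars) and 7 of the 17 mitochondrial ones (Cars2, Ears2, Lars2, Rars2, Sars2, Tars2 and Wars2). The synthetases did not peak together. The 24-h cosine peaked in the light for 5 of the 12, from ZT6.2 (Rars2) to ZT10.4 (Hars and Qars), and in the dark for the other 7, from ZT18.2 (Tars) to ZT22.7 (Mars1 and Tars2). Among the cytosolic members 3 peaked in the light and 2 in the dark, and among the mitochondrial members 2 and 5. The amplitudes were modest, from 0.045 to 0.20 on the log2 scale, and the highest group mean exceeded the lowest by 1.09-fold (Mars1) to 1.402-fold (Ears2).

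Under DRF, none of the 37 was called, where 0.813% of all genes were, and the smallest adjusted p-value was 0.13, for Mars1. Without adjustment 4 members passed in DRF (4.36% of all genes) and 14 in NRF (34.8%). A cosine fitted with limma called Mars1 and Tars2 in DRF (4.04% of all genes), and neither without the 2 libraries that stood apart (adjusted p = 0.24 and 0.19). The DRF profiles were not all flat, however. A limma test for any difference among the 7 time points called 16 members in DRF (32.4% of all genes), led by Lars (adjusted p = 2.07e-05), and 8 without the 2 libraries (14.8% of all genes). The amplitude was smaller in DRF than in NRF for 10 of the 12 members called in NRF, Mars1 and Tars2 being the exceptions. These 12 were picked by their NRF values, which favours a larger NRF amplitude, so the count is no test of a difference. The median amplitude over the 17 mitochondrial members was 0.075 in NRF and 0.038 in DRF, that over the 20 cytosolic members 0.047 and 0.038, and that over all genes tested 0.073 and 0.056. The 25 members not called in NRF had amplitudes of 0.0049 (Pars2) to 0.090 (Mars2) there.

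**Figure D1:**
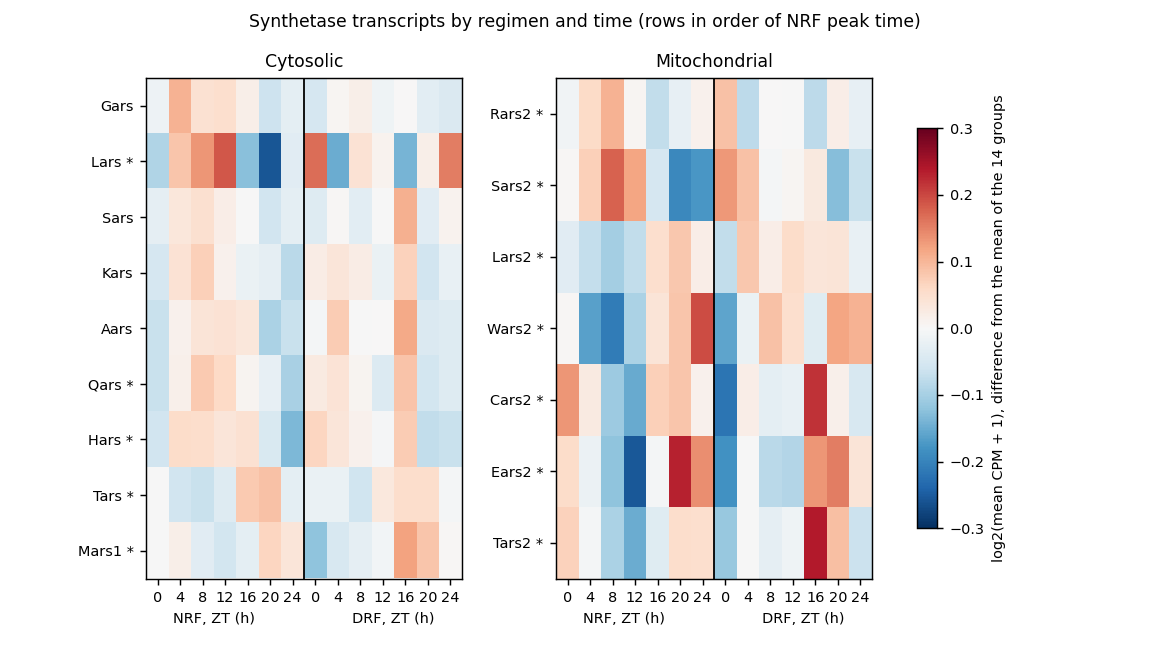
Group means of the synthetases called by the rhythm test or the 24-h cosine fit in either regimen, as the difference of log2(mean CPM + 1) from the mean over the 14 groups (colour), with cytosolic members on the left, mitochondrial members on the right and rows in order of NRF peak time, where * marks a rhythm called in NRF. In NRF Lars is above its mean at ZT8 and ZT12 and below it at ZT20, whereas Ears2 and Wars2 are below theirs at ZT8 and ZT12 and above at ZT20.

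Since calls in a single regimen leave the difference untested, the cosine and sine terms of the 24-h curve were compared between the regimens with limma over all 56 mice. The rhythm differed for 6 of the 37 synthetases, 16.2% of the members, where 10.9% of all genes tested were called. These were the cytosolic enzymes for leucine (Lars) and methionine (Mars1) and the mitochondrial enzymes for threonine (Tars2), glutamate (Ears2), tryptophan (Wars2) and cysteine (Cars2). The curve of the difference between the regimens had an amplitude of 0.24 ± 0.042 (SE) for Lars (adjusted p = 3.96e-04), 0.17 ± 0.033 for Tars2 (adjusted p = 0.0014) and 0.16 ± 0.040 for Ears2 (adjusted p = 0.015). It was 0.19 ± 0.050 for Wars2 (adjusted p = 0.023), 0.10 ± 0.027 for Mars1 and 0.17 ± 0.046 for Cars2 (both adjusted p = 0.027). The median of this amplitude was 0.059 over the members and 0.091 over all genes tested. Without the DRF ZT16 replicates 3 and 4 the call was lost for Mars1 (adjusted p = 0.11) and held for the other 5 (10.5% of all genes). Lars and Tars2 passed under every alternative run, while the other 4 each lost the call under at least 1, such as leaving out ZT0, which left Lars and Tars2 alone.

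**Figure D2:**
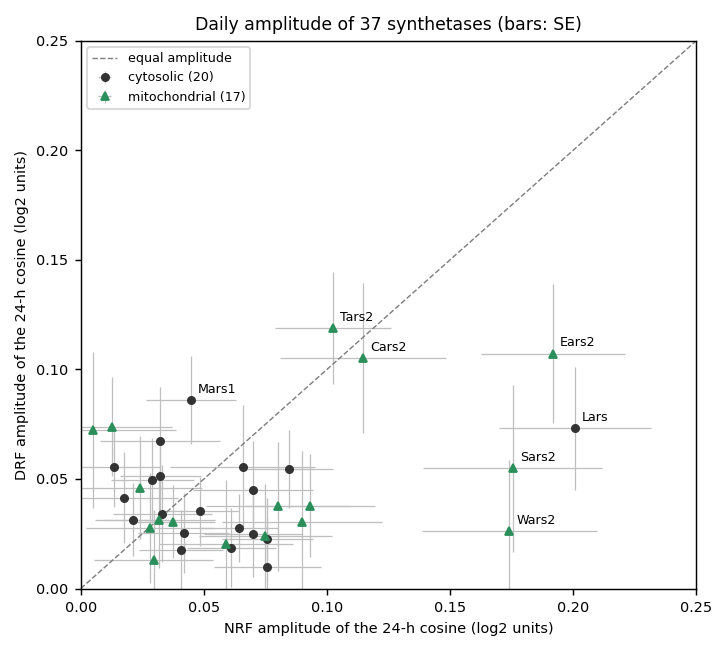
Amplitude of the fitted 24-h cosine in NRF (x axis) and DRF (y axis), in log2 units, for the 20 cytosolic and 17 mitochondrial synthetases, with bars of 1 SE and a dashed line where both are equal. Lars, Ears2, Sars2 and Wars2 lie far below the line, while Tars2 and Mars1 lie above it, as do several members with no rhythm called.

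Lars (NCBI Gene 107045, chromosome 18 from 42202298 to 42262237 on GRCm38) had the smallest adjusted p-value of the members for the difference in rhythm. In NRF its mean rose from ZT0 to ZT12, fell to ZT20 and was higher again at ZT24, at 33.1 CPM. The 4 NRF mice had 30.3, 32.7, 30.6 and 33.5 CPM at ZT0, 33.2, 36.3, 34.9 and 39.3 at ZT4, and 37.4, 38.1, 36.5 and 37.1 at ZT8. They had 39.3, 37.3, 40.2 and 38.1 CPM at ZT12, 27.7, 30.3, 32.4 and 33.5 at ZT16, 28.7, 27.2, 27.6 and 29.4 at ZT20, and 30.4, 32.2, 33.8 and 35.9 at ZT24. All mice at ZT8 and ZT12 were thus above all mice at ZT16, ZT20 and ZT24, and the mean at ZT12, 38.7 ± 1.3 CPM (SD, n = 4), was 1.36-fold that at ZT20, 28.2 ± 1.0. The cosine peaked at ZT8.0 with an amplitude of 0.20 ± 0.031 (SE).

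In DRF the profile of Lars was another. The mice had 37.8, 39.6, 36.5 and 38.7 CPM at ZT0, 30.1, 31.1, 31.8 and 29.0 at ZT4, 34.5, 36.8, 35.8 and 32.8 at ZT8, and 34.4, 35.9, 35.3 and 31.0 at ZT12. They had 29.2, 32.2, 30.5 and 30.8 CPM at ZT16, 33.0, 36.98, 35.6 and 31.8 at ZT20, and 38.0, 39.8, 37.2 and 36.4 at ZT24. Lars was thus high at both samplings of lights on, when DRF mice had gone the whole dark phase without food, and low at ZT4 and again at ZT16. The regimens did not overlap at ZT0, ZT4, ZT12, ZT20 or ZT24. DRF exceeded NRF by 0.26 ± 0.054 (SE) at ZT0 (adjusted p = 0.0026), differed by -0.23 ± 0.054 at ZT4 (adjusted p = 0.0115) and was higher by 0.27 ± 0.054 at ZT20 (adjusted p = 0.0046). The differences of -0.18 at ZT12 and 0.19 at ZT24 did not pass (adjusted p = 0.0745 and 0.13), and that at ZT12 passed without the 2 libraries that stood apart (adjusted p = 0.0497).

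**Figure D3:**
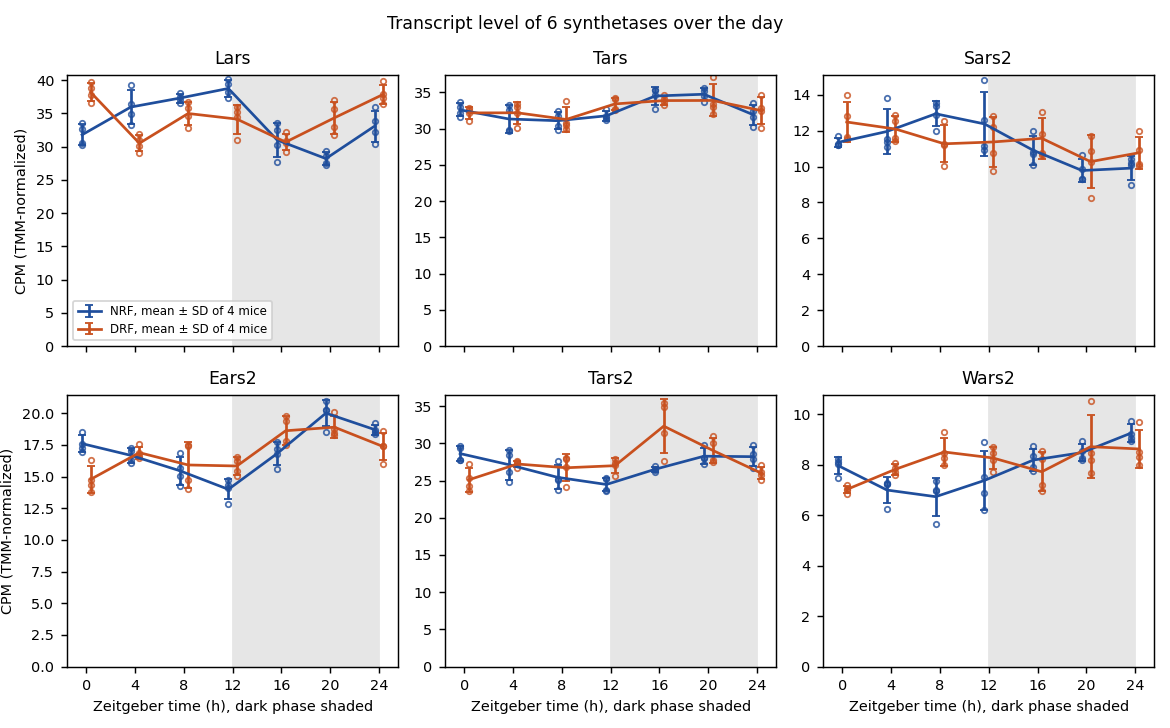
Level in CPM (y axis, from 0) against zeitgeber time in hours for 6 synthetases, with 1 open circle per mouse and lines joining means ± SD of 4 mice, NRF in blue, DRF in orange and the dark phase shaded. Lars crosses between the regimens, from 38.2 against 31.8 CPM at ZT0 to 34.1 against 38.7 at ZT12 in DRF against NRF, and Tars2 has its DRF maximum of 32.3 CPM at ZT16.

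The mitochondrial glutamyl enzyme Ears2 (chromosome 7 from 122034162 to 122067094), which in mitochondria also charges the transfer RNA for glutamine before its amidation, had its lowest NRF mean at ZT12, where Lars had its highest, and its highest at ZT20, where Lars had its lowest. The NRF mice had 12.8, 14.3, 14.1 and 14.7 CPM at ZT12 and 20.2, 21.0, 20.2 and 18.5 at ZT20, with no overlap, a 1.402-fold difference of the means and a cosine peak at ZT21.8. The DRF mice had 16.2, 15.5, 16.6 and 15.1 CPM at ZT12 and 20.1, 18.5, 18.2 and 18.7 at ZT20, also with no overlap. At ZT0 the values were 18.6, 16.9, 17.3 and 17.6 in NRF and 16.3, 13.8, 14.7 and 14.4 in DRF, all DRF mice below all NRF mice, a difference of -0.24 ± 0.059 (adjusted p = 0.011). The levels at ZT20 overlapped between the regimens, and at ZT12 all DRF mice were above all NRF mice.

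The mitochondrial threonyl enzyme Tars2 (chromosome 3 from 95739974 to 95756365) peaked at ZT22.7 in NRF and at ZT15.9 in DRF. At ZT0 the NRF mice had 29.3, 27.8, 27.8 and 29.6 CPM and the DRF mice 25.3, 27.2, 23.6 and 24.2, with no overlap (difference -0.18 ± 0.057, adjusted p = 0.0498). At ZT16 the NRF mice had 26.5, 26.5, 27.0 and 26.1 CPM and the DRF mice 27.6, 31.4, 35.4 and 34.8, again with no overlap. The 2 highest of these DRF values are those of the libraries that stood apart, and the DRF amplitude fell from 0.12 ± 0.025 to 0.072 without them. The difference in rhythm nevertheless passed without them (amplitude 0.14, adjusted p = 0.0031).

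Wars2 (chromosome 3 from 99140107 to 99221230), the mitochondrial tryptophanyl enzyme, and Sars2 (chromosome 7 from 28741957 to 28753879), the mitochondrial seryl enzyme, moved in opposite directions in NRF. For Wars2 the NRF mice had 6.99, 6.97, 7.34 and 5.63 CPM at ZT8 and 8.53, 8.28, 8.92 and 8.17 at ZT20, and the DRF mice 8.26, 7.97, 8.48 and 9.30 at ZT8 and 7.69, 10.5, 8.19 and 8.45 at ZT20. The times did not overlap in NRF and overlapped in DRF, and at ZT8 all DRF mice were above all NRF mice (difference 0.30 ± 0.077, adjusted p = 0.089, and 0.040 without the 2 libraries that stood apart). For Sars2 the NRF mice had 12.9, 13.5, 12.0 and 13.4 CPM at ZT8 and 10.6, 9.33, 9.84 and 9.30 at ZT20, with no overlap. The DRF mice had 12.6, 11.2, 10.04 and 11.3 at ZT8 and 11.7, 8.24, 10.9 and 10.3 at ZT20, with overlap, and the rhythm of Sars2 was not called as different.

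Cars2 (chromosome 8 from 11514017 to 11550781), the mitochondrial cysteinyl enzyme, had 13.5, 12.4, 13.03 and 9.91 CPM in the NRF mice at ZT0 and 9.74, 10.2, 8.95 and 8.58 in the DRF mice. The groups overlapped through a single NRF mouse, at 9.91 CPM. The difference of -0.35 ± 0.077 (adjusted p = 0.0043) was the largest of any member at this time point. Together with Lars, Ears2 and Tars2, the mitochondrial tyrosyl enzyme Yars2 (-0.23 ± 0.061, adjusted p = 0.019) and isoleucyl enzyme Iars2 (0.13 ± 0.035, adjusted p = 0.021) made 6 members that differed at ZT0, where 4.42% of all genes did. Of these 6, Lars and Iars2 were higher in DRF (2.33% of all genes) and Cars2, Ears2, Tars2 and Yars2 lower (2.09%). None of the 6 was called when replicate 1 or replicate 3 was left out of every group.

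At ZT24, the same clock time a day later, none of the 37 passed in limma (0.283% of all genes), and Lars alone did without adjustment (8.11% of all genes). The differences at ZT24 were -0.10 for Ears2, -0.11 for Tars2, -0.061 for Cars2, -0.018 for Yars2 and -0.026 for Iars2, all smaller in size than at ZT0 and, for Iars2, of the other sign. Mice of the same regimen were compared between ZT24 and ZT0 as a measure of how far groups differ at the same phase. The bifunctional enzyme Eprs differed in NRF (0.18 ± 0.037, adjusted p = 0.016), the only member called among the 37, where 2.13% of all genes were called, and it was not called when any of the 4 replicate numbers was left out. With library trends removed the difference turned to -0.038 (adjusted p = 0.86). In DRF none was called in limma (0.468% of all genes), with 9 members passing without adjustment (14.9% of all genes), and Ears2 differed by 0.22 (adjusted p = 0.071). Without the 2 libraries that stood apart Ears2 was called (adjusted p = 0.044, 1.07% of all genes).

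At the other time points few synthetases differed. Lars was the only member called at ZT4 (3.92% of all genes), and none was called in limma at ZT8 (0.172%) or ZT12 (1.48%), where 3 and 6 passed without adjustment (13.3% and 16.5% of all genes). Wars2 was called at ZT8 (0.770% of all genes) and Lars at ZT12 (4.19%) when the 2 libraries were left out. The call at ZT4 held only when replicate 1 was the one left out. At ZT20 Lars and Eprs were called (1.14% of all genes), Eprs with a difference of 0.14 ± 0.037 (adjusted p = 0.046), and neither was called without replicate 2 or without replicate 3, nor Eprs without replicate 1 or without replicate 4. Averaged over the day, only Farsb, the other subunit of the phenylalanyl enzyme, differed in level, by -0.065 ± 0.022 in DRF against NRF (adjusted p = 0.043), where 10.4% of all genes did, and this call was lost without the 2 libraries that stood apart (adjusted p = 0.11). The median difference in level was 0.011 over the cytosolic members, -0.0045 over the mitochondrial members and -0.0023 over all genes tested.

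ZT16 was the exception in number. There 8 members were called, where 20% of all genes were. Cars, Farsa, Mars1, Sars, Vars, Tars2 and Vars2 were higher in DRF (6.59% of all genes) and Nars lower (13.4%). The differences were 0.16 ± 0.055 for Farsa, 0.14 ± 0.046 for Mars1, 0.20 ± 0.063 for Vars2 and -0.12 ± 0.042 for Nars. For the cytosolic valyl enzyme Vars the NRF mice had 41.2, 39.6, 41.8 and 37.3 CPM and the DRF mice 40.9, 45.3, 49.3 and 51.3, a difference of 0.22 ± 0.058 (adjusted p = 0.0094). For the cytosolic cysteinyl enzyme Cars they had 42.2, 41.1, 45.2 and 43.9 in NRF and 45.1, 44.2, 51.2 and 51.1 in DRF, a difference of 0.15 ± 0.042 (adjusted p = 0.013). In both genes the 2 highest DRF values were replicates 3 and 4. The other 2 lay within the NRF range for Cars, and for Vars 1 lay within and 1 above it. Without these 2 libraries none of the 37 was called in limma (0.203% of all genes, and 2 members against 11.4% of all genes without adjustment), Vars differed by 0.11, Cars by 0.052 and Tars2 by 0.15, and the difference of Sars turned from 0.10 to -0.0095.

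In replicates 3 and 4 of DRF at ZT16, the deviation of the 37 members from their own means correlated with their GC content at r = 0.70 and 0.76 (37 genes measured in the same library, a description only). The aspartyl enzyme Dars, with 41.2% GC, deviated by -0.28 and -0.53, and Vars, with 60.9% GC, by 0.23 and 0.29. In replicates 1 and 2 the same correlation was 0.087 and -0.053. In other groups it reached 0.63 in DRF ZT4 replicate 1 and 0.62 in DRF ZT8 replicate 1. The lowest value was -0.55, in NRF ZT24 replicate 4. A correlation over the 37 members was therefore not confined to the libraries that stood apart. Other values also moved with this time point. The thalamic marker Tcf7l2 was lower in DRF at ZT16 (-1.16 on the log2 scale, adjusted p = 0.027), with a summed level of Tcf7l2 and Prkcd of 31.9 to 164 CPM over the DRF and 33.0 to 245 CPM over the NRF libraries, and 2 of the 3 neuronal markers, Snap25 and Syt1, were lower (-0.27 and -0.36, both adjusted p = 0.0052), while the third, Rbfox3, had a difference of 0.15 (adjusted p = 0.087). The summed level of the 3 was 2065 to 3003 CPM over the DRF and 2325 to 3114 CPM over the NRF libraries. Of 4 astrocyte markers, Aldh1l1 was higher (0.29, adjusted p = 0.0031) and Slc1a3 lower (-0.16, adjusted p = 0.019), and P2ry12 of microglia (-0.72) and Kcne2 of the choroid plexus (-0.27) were lower, as was the hypothalamic marker Six3, while Lhx1 was higher (0.61). The part of these in the synthetase values was not tested.

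**Figure D4:**
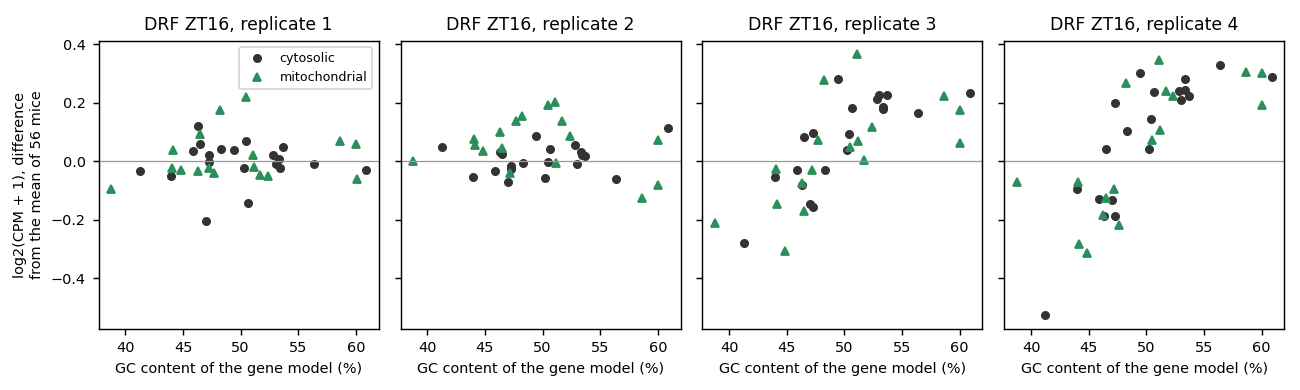
Difference of each synthetase from its mean over the 56 mice, in log2 units (y axis), against the GC content of its gene model in percent (x axis), with 1 panel for each of the 4 DRF mice at ZT16, circles for cytosolic and triangles for mitochondrial members. A slope is seen in replicates 3 and 4 (r = 0.70 and 0.76) and not in replicates 1 and 2 (r = 0.087 and -0.053). Libraries of other groups, not drawn, had r from -0.55 to 0.63.

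To separate the light cycle from the meal, the interior time points of each phase were compared, ZT16 and ZT20 for the dark and ZT4 and ZT8 for the light. Averaged over the regimens, 11 of the 37 synthetases differed between dark and light (29.7%), where 17.9% of all genes did. Higher in the dark (8.93% of all genes) were Tars (0.12 ± 0.022, adjusted p = 1.05e-04), Ears2 (0.18 ± 0.030, adjusted p = 1.07e-05), Tars2 (0.12 ± 0.028), Wars2 (0.13 ± 0.038), Cars2 (0.12 ± 0.038) and Mars1 (0.081 ± 0.023). Lower in the dark (9.01% of all genes) were Lars (-0.155 ± 0.027, adjusted p = 4.47e-05), Sars2 (-0.17 ± 0.044), Nars2 (-0.094 ± 0.031), Gars (-0.062 ± 0.020) and Iars2 (-0.053 ± 0.017). The split thus ran through both compartments, with 4 of 20 cytosolic and 7 of 17 mitochondrial members called. The median difference was -0.024 over the cytosolic, 0.015 over the mitochondrial and -0.0081 over all genes tested. Without the 2 libraries that stood apart 14 members were called, where 30.4% of all genes were, with Aars, Kars, Sars and Vars added and Nars2 lost (adjusted p = 0.15).

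By regimen, 11 members were called in NRF (26.4% of all genes). Lars was lower in the dark (-0.30 ± 0.039, adjusted p = 1.18e-07), as was Sars2 (-0.245 ± 0.062), with smaller decreases in Rars2, Nars2, Gars, Kars and Sars of -0.13 to -0.069. Wars2 was higher by 0.25 ± 0.054, Ears2 by 0.18 ± 0.042, Lars2 by 0.15 ± 0.046 and Tars by 0.15 ± 0.031. Among markers of other regions and cell types, Tcf7l2 was also higher in the dark in NRF, by 0.90 (adjusted p = 0.011), the only one of its pair to pass. Gja1 of astrocytes (0.13), Flt1 of endothelium (0.20) and Foxj1 of ependyma (0.27) were higher in the dark as well, and Aldh1l1 of astrocytes (-0.13) and C1qa of microglia (-0.17) lower, each with an adjusted p-value of 0.018 to 0.041. The other markers of these cell types were not called and had mixed signs. The values were -0.0073 for Aqp4 and 0.015 for Slc1a3, 0.047 for Cldn5 and -0.065 for Pecam1, and -0.15 for Ccdc153 and -0.044 for Tmem212. In microglia they were -0.051 for Cx3cr1, 0.052 for P2ry12 and 0.033 for Csf1r. The part of these in the synthetase values was not tested. In DRF 3 members were called (3.32% of all genes), Ears2 (0.19 ± 0.042), Tars2 (0.18 ± 0.040) and Mars1 (0.14 ± 0.032), all higher in the dark. Without the 2 libraries Ears2 alone was called (0.22, adjusted p = 0.0021, 3.20% of all genes), and Tars2 and Mars1 had adjusted p-values of 0.12 and 0.15. The difference of Lars in DRF was -0.0098 ± 0.039.

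The contrast that follows the meal, fed minus fasted over the same time points in both regimens, called 3 members (8.11%), where 10.2% of all genes were called. Lars was lower in the fed phase (-0.145 ± 0.027, adjusted p = 6.47e-04), as was the cytosolic seryl enzyme Sars (-0.059 ± 0.018, adjusted p = 0.033), and Wars2 was higher by 0.12 ± 0.038 (adjusted p = 0.032). Without the 2 libraries the call held for Lars (-0.15, adjusted p = 0.0024) and was lost for Sars and Wars2 (adjusted p = 0.25 and 0.17), while Rars2 was gained (-0.10, adjusted p = 0.044, 3.65% of all genes called). Lars was thus called in the contrast for light and in that for the meal. Both rest on NRF, where dark and fed coincide (-0.30), since its difference between the same time points in DRF was -0.0098. Wars2 was also called in both contrasts, and between dark and light in NRF but not in DRF. Its 24-h amplitude was 0.17 ± 0.036 (SE) in NRF and 0.026 ± 0.033 in DRF. A response of Wars2 to the meal is thus not shown within DRF.

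Of the other rhythmic members, Tars and Hars show how small the called changes were. Tars, the cytosolic threonyl enzyme, had 30.4, 29.8, 31.7 and 32.5 CPM at ZT8 and 35.2, 35.6, 33.7 and 34.5 at ZT20 in NRF, with no overlap, and 30.01, 33.8, 30.5 and 30.8 against 37.1, 32.0, 33.4 and 33.0 in DRF, with overlap. The histidyl enzyme Hars had 97.7, 105, 102 and 106 CPM at ZT4 and 87.8, 87.7, 91.5 and 92.5 at ZT24 in NRF, with no overlap, and 98.0, 109, 102 and 96.5 against 94.7, 90.5, 101.2 and 91.1 in DRF, with overlap. For both genes these times are the highest and lowest in NRF, so overlap in DRF alone is no comparison of the regimens. In DRF Hars was highest at ZT16 and lowest at ZT20. The locus of Hars overlaps that of Hars2 by a few bases on chromosome 18, and reads there cannot be told apart without strand. The glutaminyl enzyme Qars (amplitude 0.076 ± 0.022) followed Hars in NRF, and Farsa had one of the larger cytosolic amplitudes in DRF, 0.067 ± 0.024, without a call.

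Within the multisynthetase complex, 3 of the 8 synthetases (Lars, Mars1 and Qars) were rhythmic in NRF (27.8% of all genes) and 2 (Lars and Mars1) differed in rhythm between regimens (10.9% of all genes). Of the scaffolds Aimp1, Aimp2 and Eef1e1, none was rhythmic or differed in rhythm, and Eef1e1 alone differed in level (-0.10 ± 0.030, adjusted p = 0.025, and 0.067 without the 2 libraries). By catalytic class, with Eprs, which joins an enzyme of each, counted in class I, 8 of the 19 class I and 4 of the 18 class II synthetases were rhythmic in NRF, and 5 and 1 differed in rhythm, beside the same shares of all genes. The difference between the classes was not tested.

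Among 18 partners of charging, 5 were rhythmic in NRF (27.8%, the share of all genes) and none in DRF (0.813% of all genes), and the rhythm differed, as for 10.9% of all genes, for Qrsl1 alone (0.135 ± 0.040, adjusted p = 0.0475, and 0.052 without the 2 libraries), a subunit of the amidotransferase that works on the product of Ears2. Qrsl1 was also lower in DRF at ZT0 (-0.21 ± 0.065, adjusted p = 0.049), as was Tufm, the mitochondrial elongation factor that carries charged transfer RNA (-0.17 ± 0.051, adjusted p = 0.038). Pstk, a kinase of the selenocysteine pathway, was lower at ZT4 (-0.30 ± 0.087) and lower in the fed phase (-0.13 ± 0.043). The transfer RNA end-processing enzyme Trnt1 differed at ZT16 (-0.40 ± 0.096) and between fed and fasted (0.145 ± 0.048). Neither call held without the 2 libraries (adjusted p = 0.83 and 0.32), nor did that of Pstk for fed minus fasted (adjusted p = 0.090).

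Of 25 genes of the amino-acid response, 7 were rhythmic in NRF (28%, beside 27.8% of all genes) and none in DRF (0.813% of all genes), and 5 differed in rhythm (20%, beside 10.9% of all genes). The largest difference was that of Slc7a11, the cystine transporter (0.41 ± 0.078, adjusted p = 9.67e-04), which was also higher in the fed phase (0.34 ± 0.066). Slc7a5, the light chain of the transporter that brings leucine into the cell, differed in rhythm by 0.26 ± 0.035 (adjusted p = 5.9e-06) and was higher in DRF at ZT0 by 0.38 ± 0.064 and at ZT24 by 0.33 ± 0.064 (adjusted p = 1.3e-04 and 0.0081). The values of Lars at the same times were 0.26, which passed, and 0.19, which did not (adjusted p = 0.13). The arginine transporter Slc7a1 (0.13 ± 0.037) and the serine synthesis enzyme Phgdh (0.15 ± 0.038) also differed in rhythm. Slc7a1 was higher in DRF at ZT0 by 0.26 ± 0.063, and Phgdh was lower in the fed phase (-0.10 ± 0.030, adjusted p = 0.022, and 0.16 without the 2 libraries). Cebpg was higher in the fed phase by 0.15 ± 0.046 and differed in rhythm by 0.19 ± 0.054, and neither call held without the 2 libraries (adjusted p = 0.25 for both).

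The regulators of this response differed by small amounts. Atf4, rhythmic in NRF, was lower in DRF over the day (-0.077 ± 0.022, adjusted p = 0.018) and at ZT16 (-0.17 ± 0.058), Eif2ak4 was higher by 0.087 ± 0.021 and its partner Gcn1 by 0.097 ± 0.021. In level over the day 10.4% of all genes differed. Of the same list, Asns, Chac1, Ddit3, Sesn2 and Atf5 were not called for the difference in rhythm, for fed minus fasted or at any time point. Slc7a11, Slc7a5, Slc7a1, Phgdh and Cebpg, also of this list, were called for the difference in rhythm, as given above. Mthfd2 was lower in DRF at ZT0 (-0.23 ± 0.071). The genes called at ZT16 were Atf4, Cebpg, Eif2ak4, Gcn1, Shmt2, Trib3 and Vldlr, of which Atf4 alone passed without the 2 libraries (-0.29, adjusted p = 0.027).

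The element through which ATF4 and its partners act on such genes was looked for in the promoters, from 250 bases before to 50 bases after the RefSeq start (GRCm38.p6), which were at hand for 27 of the 37 members, 13 cytosolic and 14 mitochondrial. The sequence TGATGNAA, on either strand, was found in 5 of the 13 cytosolic windows and in 0 of the 14 mitochondrial ones, where 4.51% of 27025 genes have it. It is printed for each gene to show where these letters lie, with the match in capitals, on the strand of the gene and read 5′ to 3′, so that a match on the opposite strand appears as its reverse complement. Only the match in Yars is on the strand of the gene, and Aars has a further match after its start. The first is that of Gars (chr6:55037945-55038000, plus strand), followed by Aars (chr8:111033704-111033763, plus), Tars (chr15:11399659-11399699, minus), Iars (chr13:49682126-49682155, plus) and Yars (chr4:129189895-129189924, plus).
Gars: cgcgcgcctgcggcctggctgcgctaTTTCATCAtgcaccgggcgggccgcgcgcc
Aars: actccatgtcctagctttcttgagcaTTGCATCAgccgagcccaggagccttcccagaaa
Tars: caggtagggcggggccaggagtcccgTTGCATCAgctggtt
Iars: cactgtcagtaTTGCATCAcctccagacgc
Yars: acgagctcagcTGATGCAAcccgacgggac

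Of these 5 genes, Tars was rhythmic in NRF and none differed in rhythm between the regimens, for fed minus fasted or at a time point. The sequence TTATGNAA, the core of the D-box bound by DBP and NFIL3, was found in Vars2 alone (3.99% of all genes). The E-box CACGTG, to which CLOCK and BMAL1 as well as other factors bind, was found in 5 of the 27 members with a window (Aars, Ears2, Farsb, Iars and Tars), where 8.09% of all genes have it. Ears2 was the single member with both a window holding it and a difference in rhythm. Its match, and that of Tars, lie just after the start and are shown with the E-box in capitals (Ears2 chr7:122067049-122067076, minus strand, and Tars chr15:11399623-11399650, minus strand).
Ears2: gcgaaggagccCACGTGtgtgtttctag
Tars: ccgcctgtggcCACGTGgcgcacgcgca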

How the data were processed

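RNA of 56 mice was sequenced in pairs of reads on a BGISEQ-500. Per the labels, the authors' processing notes name HISAT2, Bowtie2, RSEM and the builds mm10 and GRCm38.p6, and per the study's methods counts were normalized with TMM in edgeR. The deposited values, named TPM, are a score: per gene they equal log2(CPM + 1) over the length of the gene model, rescaled to nearly the same sum (999333 to 999720 per mouse), so a fold of this score understates that of the transcript. Undoing this gave log2(CPM + 1) for 17482 genes. Reads came out whole, within 0.02, for 35 members, and to 2 decimals for Farsb and Ears2. Normalized library sizes were 29591266 to 34493344. The depth limits the rarest members, and no interval for counting error is given since the tests rest on the spread between mice.

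Symbols came from RefSeq by NCBI Gene ID (108 genes without). Members and lists were chosen with earlier results of these data known. Rhythm was tested on deposited values of 16245 genes by JTK_CYCLE and Lomb-Scargle (20 to 28 h), combined by Fisher's method. The amplitude, rhythm difference and contrasts were fitted with limma 3.58.1 (R 4.3.3, trend) on log2(CPM + 1) of 16240 genes over 14 group means or a 24-h cosine per regimen. All p-values were two-sided, adjusted by Benjamini-Hochberg over all genes tested, with a threshold of 0.05, and the scripts were tested on simulated data. Named were members called in any test, the 3 largest amplitudes of each class and regimen, and the highest and lowest level per length. Values of every mouse are given for the 6 members with the smallest adjusted p-values for rhythm difference, meal, level or time point and 4 others. Alternatives were another scale, pseudocount (0.1), filter, centring, library trends, replicate block, tests, and leaving out replicates or time points. The design assumed TPM values, and the tests were run on the recovered scale. Protein sequences were not analysed here.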

Additional observations from a re-analysis of the deposited data

Results flagged for a closer look

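The 24-h rhythm differed between the feeding regimens, by the test of the difference itself, for 6 synthetases. The amplitude of the difference between the regimens' curves was 0.242 for Lars, 0.10 for Mars1, 0.171 for Cars2, 0.160 for Ears2, 0.172 for Tars2 and 0.189 for Wars2 in log2 units, with adjusted p-values of 3.96e-04, 0.0269, 0.0269, 0.0149, 0.0014 and 0.0229 in limma. The difference passed for Lars and Tars2 under every alternative run, with adjusted p-values up to 0.012 and 0.045. For Mars1 they reached 0.25, for Cars2 0.25, for Ears2 0.094 and for Wars2 0.25. Of the 46 groups of 4 mice whose single values are printed, none had a mouse whose gap to the next was past Dixon's 95% critical value, where chance alone would give about 1 in 20.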

How the results depend on the processing

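Of 710 values of single synthetases recomputed under alternatives, 548 kept their call and direction, 160 kept the direction and lost the call, and 2 changed direction. Sars at ZT16 went to -0.00952 without DRF ZT16 replicates 3 and 4, and Eprs in ZT24 minus ZT0 in NRF to -0.0377 with library trends removed. Of 234 recomputed counts of members, 173 stayed within 1.5 times the count given above. The other counts follow, and the cause was not tested. For most settings, here and in the paragraphs on replicates below, no share of all genes is given. A changed count is therefore no result about the synthetases alone, since the whole table may have changed with it. For rhythm in NRF, Lomb-Scargle alone called 0 members and the cosine with library trends removed 20. For rhythm in DRF, the limma cosine called 2, also with the replicate block, 4 with trends removed, and the test for any difference among time points 16. The level difference gave 0 on log2(deposited value + 1), with trends removed, without ZT0, without ZT24 and without the 2 DRF ZT16 libraries. With trends removed there were 2 at ZT4, 5 at ZT16, 7 for fed minus fasted, and for ZT24 minus ZT0 0 in NRF and 3 in DRF. Without the 2 libraries there was 1 at ZT8, 1 at ZT12, 0 at ZT16, 1 for dark minus light in DRF and 1 for ZT24 minus ZT0 in DRF. At ZT20 there was 1 on log2(deposited value + 1), with trends removed, with the replicate block, without limma's trend and with voom on recovered reads. The rhythm difference gave 2 without ZT0.

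Leaving out each replicate number in turn, with 3 mice then left in a group, gave 7 to 12 members for rhythm in NRF, 0 in DRF, 0 to 3 for level, 0 to 4 at ZT0, 0 to 1 at ZT4, 0 at ZT8, 0 to 2 at ZT12, 0 to 11 at ZT16, 0 to 1 at ZT20 and 0 to 1 at ZT24. It gave 5 to 10 for dark minus light, 5 to 10 in NRF and 0 to 3 in DRF, 1 to 4 for fed minus fasted, 0 for ZT24 minus ZT0 in each regimen, and 2 to 5 for the rhythm difference. The counts moved by over 1.5 times without replicate 2 or 3 for rhythm in NRF (7 each), without replicates 1, 3 or 4 for the rhythm difference (3, 2 and 3), without replicates 2, 3 or 4 for dark minus light (5, 7 and 7), without replicate 4 in NRF (5), without replicates 3 or 4 in DRF (1 and 0), for fed minus fasted (1 each) and at ZT16 (0 each), and without replicates 1, 2 or 3 at ZT0 (0, 3 and 0) and for level (0, 3 and 0).

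Mice with the same replicate number did not deviate together over all tested genes (median correlation 0.00597, lowest -0.531, and 15 of 56 closest to their own number). This measure could miss a small shared effect or one in few genes, so it does not settle whether the numbers pair the mice. With the replicate block, ZT0 had 5 members, dark minus light 12, the rhythm difference 6 and fed minus fasted 3. The rarest members, at 143 reads and above in a mouse, are those for which depth limits the precision most.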

Other observations

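Some markers of glia, endothelium and choroid plexus differed in rhythm between the regimens. Aldh1l1, a folate enzyme marking astrocytes, had a difference of 0.25 (adjusted p = 2.6e-05), while Aqp4, Slc1a3 and Gja1, which mark the same cells, were not called. P2ry12, a receptor of resting microglia, differed by 0.30 (adjusted p = 0.0088), Mog of oligodendrocytes by 0.25 (adjusted p = 0.037) and Flt1 of endothelium by 0.22 (adjusted p = 0.017). Kcne2 of the choroid plexus, with a mean of only 0.45 CPM, differed by 0.19 (adjusted p = 0.010 in limma). Aldh1l1 was lower in the fed phase (-0.19, adjusted p = 1.06e-04). At ZT16, where 2 DRF libraries stood apart, Aldh1l1 was higher in DRF by 0.29 and Slc1a3 lower (-0.16), with values of -0.24 for Aqp4 and -0.093 for Gja1 that did not pass (adjusted p = 0.11 and 0.27), and P2ry12 was lower (-0.72). In each of these marker lists a single gene was called for the difference in rhythm.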
